A study of Mus musculus with 23 samples.

Results

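The genes described here are the 30 members of a cholesterol synthesis module: the enzymes that build cholesterol from acetyl-CoA, the proteins that control the transcription factor SREBP2, and a few genes of sterol transfer and storage. They were found by gene name in both of the authors' count tables, 1 per sex. Each name was listed once in each table, so the module covers 30 of the 26522 genes in either table. The choice of names used no value of these samples, but it was made with earlier results on the same samples known. Liver RNA of mice was sequenced in 23 libraries: 5 of control males (replicates 1, 2, 3, 4 and 6), 6 of LKO males, 6 of control females and 6 of LKO females. Controls and LKO animals alike were labelled B100, had eaten a diet labelled only WD for 16 weeks, and were killed in the fed state. Per the title of the series, LKO stands for ablation of Cpt1a in the liver. The promoter that drives the ablation, the age of the mice and the alleles behind the B100 label are not given in the sources used here.

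Cholesterol is made in the endoplasmic reticulum and cytosol by a long chain of enzymes that runs from acetyl-CoA through mevalonate, isoprenoid diphosphates, squalene and lanosterol. The liver is a main site of this synthesis, and it also packs cholesterol into lipoproteins and bile. When membrane sterol is low, the escort protein SCAP carries SREBP2 from the endoplasmic reticulum to the Golgi, where a pair of proteases frees its transcription factor domain. That domain raises the genes of nearly every enzyme of the chain. INSIG proteins hold SCAP back when sterol is high.

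Total counts per library ran from 14224665 to 19626662. Cpt1a, the ablated gene, checked the labels. It fell from 362 to 63.9 CPM (reads of a gene relative to the library total, scaled by TMM factors) in males and from 383 to 74.96 CPM in females, and the groups did not overlap in either sex (two-sided exact permutation test, p = 0.00216 in each sex). The liver label was checked with hepatocyte markers, whose 6 genes summed to between 51106 and 93123 CPM in every library. None of the marker genes of hepatocytes, macrophages, stellate cells, endothelial cells, cholangiocytes or lymphocytes was at 0 in all libraries of a group. In bulk liver RNA, fewer cells of a type and less RNA per cell cannot be told apart. The labels do not say that each library is a separate animal, although the design speaks of mice, and the p-values below measure the spread between libraries.

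The stretches of DNA just before the start sites show what the members share in sequence. RefSeq promoter entries of build GRCm38.p6 were found for 25 of the 30 genes. The tables themselves use another build (mm39, per the submitters' processing notes). In the 250 bases before any listed start, a CCAAT box (CCAAT, or ATTGG on the other strand) was present in 21 of the 25, or 84.0%, against 37.5% of 27025 genes with an entry and 40.5% of the 10209 of these that were tested in females. A GC box (GGGCGG or CCGCCC) was present in 20 of the 25, or 80.0%, against 35.4% and 61.8%. The sterol element searched, TCACNCCAC (GTGGNGTGA on the other strand), was present in 1 of the 25, Hmgcs1, against 1.22% and 1.29%. These matches are descriptions of the letters in a window and no evidence of binding. Hmgcs1 is shown as the gene with the sterol element, and Pmvk, Rdh11 and Tm7sf2 as the genes that fell in LKO females. Capitals mark the sterol element and the CCAAT boxes, and positions count bases before the start to the leftmost base of the match. Hmgcs1, on the plus strand at chr13:119690101-119690350, holds TCACCCCAC at 137 and ATTGG at 237, 176 and 45. Pmvk, plus strand at chr3:89454291-89454540 and with 2 starts listed, holds CCAAT at 136. Rdh11, minus strand at chr12:79190962-79191211 and also with 2 starts listed, holds ATTGG at 72. For Pmvk and Rdh11 the window shown is that of the most upstream start free of annotated UTR. Whether this is the main start was not examined. Of Tm7sf2, minus strand, only the 30 bases at chr19:6067881-6067910 around ATTGG at 47 are shown, because the window holds annotated UTR.
Hmgcs1: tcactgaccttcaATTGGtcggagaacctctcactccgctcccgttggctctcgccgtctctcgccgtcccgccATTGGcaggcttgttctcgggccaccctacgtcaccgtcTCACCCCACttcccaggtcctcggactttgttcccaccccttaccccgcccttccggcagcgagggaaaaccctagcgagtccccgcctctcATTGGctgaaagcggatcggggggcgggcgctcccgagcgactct
Pmvk: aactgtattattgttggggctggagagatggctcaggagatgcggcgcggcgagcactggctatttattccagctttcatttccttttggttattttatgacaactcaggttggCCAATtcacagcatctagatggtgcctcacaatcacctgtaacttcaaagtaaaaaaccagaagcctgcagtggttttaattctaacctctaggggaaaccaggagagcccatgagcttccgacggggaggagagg
Rdh11: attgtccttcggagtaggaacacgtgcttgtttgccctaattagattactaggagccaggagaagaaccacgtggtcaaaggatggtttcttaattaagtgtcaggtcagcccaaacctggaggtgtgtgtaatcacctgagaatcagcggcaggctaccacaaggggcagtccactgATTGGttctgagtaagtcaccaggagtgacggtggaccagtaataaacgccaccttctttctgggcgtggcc
Tm7sf2: cctcccagcgctgATTGGctactgtgctgg

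Levels between genes were compared on the deposited FPKM values, which divide by gene length. Ebp, Sc5d and the INSIG genes had the highest control levels. Ebp, the sterol isomerase, had the highest mean in controls, 106 FPKM in males and 115 FPKM in females. Sc5d, a sterol desaturase late in the chain, had 62.9 and 66.1 FPKM. Insig2 had 81.7 FPKM in control males and 53.4 in control females, and Insig1 had 40.3 and 62.7. At the other end stood Fdps, which makes farnesyl diphosphate, at 0.734 and 0.333 FPKM, and Mbtps2, which encodes the protease of the second SREBP2 cleavage, at 0.436 and 0.523 FPKM. The deposited level of Fdps is uncertain, since its reads ran from 1 to 99 between control males, and the reason was not tested. Paralogs that share a reaction were far apart. The sterol reductase gene Tm7sf2 had 25.4 and 25.3 FPKM against 0.511 and 0.844 for Lbr, which encodes an inner nuclear membrane protein with the same reductase activity. Soat2, the cholesterol ester synthase typical of hepatocytes, had 27.2 and 33.2 FPKM against 0.522 and 0.712 for Soat1.

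**Figure D1:**
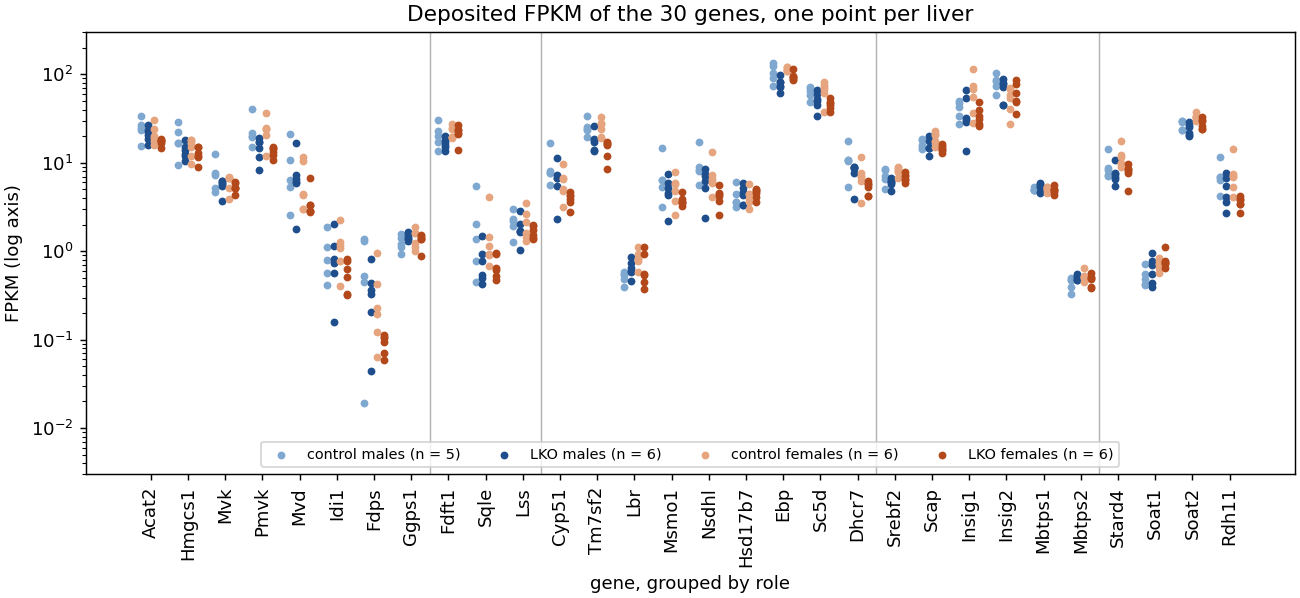
FPKM of the 30 genes on a log axis, 1 point per liver, with genes grouped by role from left to right (acetyl-CoA to isoprenoids, squalene and lanosterol, lanosterol to cholesterol, SREBP2 control, transfer and storage). Ebp and Insig2 lie near the top in all 4 groups, while Fdps, Lbr, Mbtps2 and Soat1 lie near or below 1 FPKM.

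In LKO females, 3 members fell and none rose: Pmvk, Tm7sf2 and Rdh11. Calls rest on edgeR's quasi-likelihood test at an adjusted p under 0.05 over all genes tested, which called 1.42% of the 13684 genes tested in females in either direction and 0.49% as lower. Of the 30 members 29 were tested, since Fdps failed the filter on low counts. A further 14 members had an unadjusted p under 0.05, and with the 3 called this made 17 of 29, all with lower values in LKO, against 7.33% of all genes tested in that direction. The log2 fold change was below 0 for 26 of 29 members, against 48.9% of all genes tested, and the median was -0.34 against 0.01. The exceptions were Hsd17b7 at 0.10, Insig2 at 0.19 and Soat1 at 0.17, none of them called. These counts moved little when any 1 female library was left out: 25 to 26 members stayed below 0, and the median ran from -0.43 to -0.25. The 3 calls did not. Between 0 and 7 members were called, and leaving out control female replicate 1 or 5, or any of LKO female replicates 2 to 6, left none. Pmvk was called in 1 of the 12 fits, Tm7sf2 in 2 and Rdh11 in 3.

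In LKO males no member was called by edgeR's quasi-likelihood test, which called 0.00724% of 13805 genes, and neither DESeq2, which called 0.812% of all genes, nor limma called any of the 30. In none of the 30 did the LKO males all lie below the controls, against 1.1% of all genes. Before adjustment, 4 members had a p under 0.05, all with lower values in LKO: Pmvk, Sqle, Tm7sf2 and Ebp. That is 13.3% of the members, against 7.22% of all genes tested. Still, 24 of 30 members had a log2 fold change below 0, against 47.9% of all genes, with a median of -0.28 against 0.01. Leaving out 1 male library at a time kept 22 to 24 members below 0 and the median between -0.41 and -0.15. The value nearest 0 came without control male replicate 6. Leaving out that liver also moved 16 of the 30 members over 1.5 times nearer to 0, or past it. The members above 0 in males were Lbr at 0.34, Soat1 at 0.29, Ggps1 at 0.24, Mbtps2 at 0.20, Hsd17b7 at 0.10 and Mbtps1 at 0.08.

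**Figure D2:**
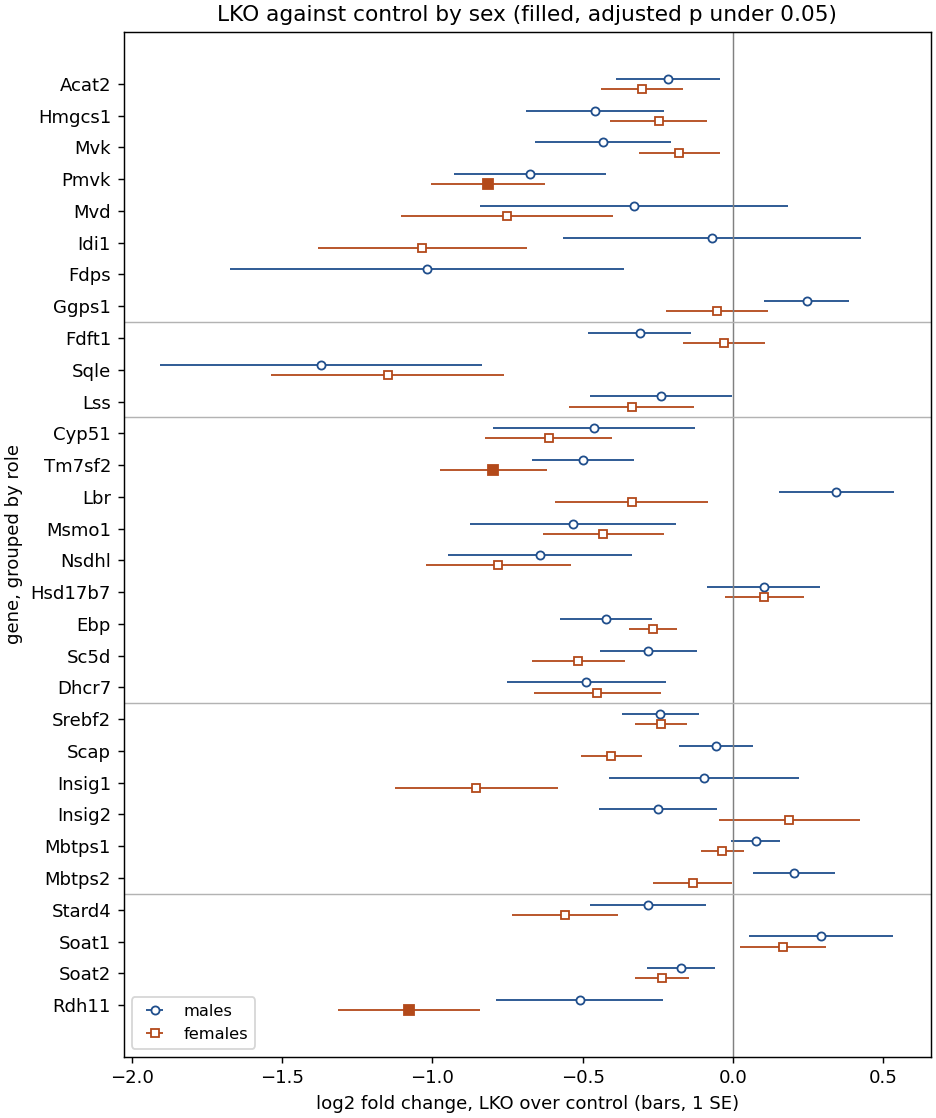
Log2 fold change of each gene in LKO against control livers (horizontal axis, edgeR), males as circles and females as squares, with bars of 1 SE; filled symbols mark an adjusted p under 0.05, and Fdps has no female value because it failed the count filter. Most symbols lie left of 0 in both sexes, and the filled symbols are the female values of Pmvk, Tm7sf2 and Rdh11.

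The first steps lead from acetyl-CoA to the isoprenoid diphosphates. Of their 8 genes, 1 was called, Pmvk in females, and 7 of 8 in males and 7 of 7 tested in females had log2 fold changes below 0, with medians of -0.38 and -0.30. Pmvk encodes phosphomevalonate kinase (ENSMUSG00000027952, chromosome 3, 89361848 to 89376320, plus strand). In control females it ran from 20.4 CPM through a median of 41.1 to 62.2, and in LKO females from 18.3 through 23.8 to 25.9. All 6 LKO females lay below the control mean, but the lowest control lay among them, so the groups overlapped. Pmvk fell by 0.81 on the log2 scale, with an SE of 0.19 (edgeR, adjusted p = 0.0486). Control males had 38.2, 34.1, 35.1, 25.7 and 71.1 CPM, and LKO males ran from 14.4 through 27.9 to 33.0. Replicate 6 stood high among the control males and replicate 4 within the range of the LKO males, and the log2 fold change was -0.67 with an SE of 0.25 (edgeR, adjusted p = 0.314).

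The other genes of these steps passed no test after adjustment. Hmgcs1, which makes HMG-CoA and carries the sterol element shown above, had log2 fold changes of -0.46 with an SE of 0.23 in males and -0.25 with an SE of 0.16 in females. Mvk, the mevalonate kinase, had -0.43 and -0.18, and Acat2, the cytosolic thiolase that opens the chain, had -0.22 and -0.30. Acat2 has a close paralog, Acat3, so its counts are uncertain. Mvd, the mevalonate diphosphate decarboxylase, had -0.33 with an SE of 0.51 in males and -0.75 with an SE of 0.35 in females. Idi1, which isomerises isopentenyl diphosphate, had -0.07 with an SE of 0.50 in males and -1.03 with an SE of 0.35 in females (edgeR, adjusted p = 0.155), and annotated pseudogenes of Idi1 make its counts uncertain. In males the sign of Mvd and Idi1 turned when some libraries were left out. Fdps had only 4 to 71 reads in control females and 4 to 10 in LKO females. Ggps1, which makes geranylgeranyl diphosphate for protein prenylation rather than for sterols, had 0.24 in males and -0.05 in females.

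The 3 genes that form squalene and lanosterol had log2 fold changes below 0 in both sexes, with medians of -0.31 in males and -0.34 in females, and none was called by edgeR, DESeq2 or limma, with Sqle alone at an unadjusted p under 0.05 in each sex. Sqle, squalene epoxidase and a rate-limiting step of the chain, had the lowest log2 fold changes of these 3 (ENSMUSG00000022351, chromosome 15, 59186926 to 59203041, plus strand). Control males had 7.84, 4.34, 11.6, 2.51 and 30.4 CPM, and LKO males ran from 2.37 through 3.69 to 8.55. Control females ran from 3.72 through 5.77 to 22.9 CPM and LKO females from 2.61 through 3.53 to 5.34. In each sex 1 control stood far above the others, and the groups overlapped. The log2 fold change was -1.37 with an SE of 0.53 in males (edgeR, adjusted p = 0.332) and -1.15 with an SE of 0.39 in females (edgeR, adjusted p = 0.157). Without its highest control, replicate 6 in males and replicate 2 in females, Sqle was at -0.58 and -0.55. Lss, the lanosterol synthase, had -0.24 and -0.34, and Fdft1, the squalene synthase, had -0.31 and -0.03. Fdft1 overlaps the abundant gene Ctsb on the other strand over 774 bases, so its counts are uncertain if strand was not used.

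The steps from lanosterol to cholesterol held the lowest group medians, -0.46 in males and -0.45 in females. Of these 9 genes, 7 in males and 8 in females had log2 fold changes below 0, and Tm7sf2 in females was called. Tm7sf2 (ENSMUSG00000024799, chromosome 19, 6112851 to 6118403, minus strand) reduces a sterol double bond right after the first demethylation of lanosterol. Its control females ran from 84.7 through 114 to 147 CPM and LKO females from 37.5 through 71.7 to 77.2. It was the only member whose groups did not overlap, 1 of 29 against 0.548% of all genes tested in females. Tm7sf2 fell by 0.80 on the log2 scale, with an SE of 0.18 (edgeR, adjusted p = 0.0384). Control males had 109, 105, 89.1, 113 and 152 CPM and LKO males ran from 60.0 through 78.3 to 116. There 5 of the 6 LKO males lay below every control, and the log2 fold change was -0.50 with an SE of 0.17 (edgeR, adjusted p = 0.288). Tm7sf2 overlaps Vps51 on the same strand over 532 bases. Vps51 itself was at -0.06 in males and 0.00 in females (edgeR, adjusted p = 0.80 and 0.99).

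Lbr, the paralog of Tm7sf2, did not pass the test in either sex. Control males had 2.38, 2.67, 2.66, 1.86 and 2.81 CPM and LKO males ran from 2.23 through 3.01 to 4.27, with a log2 fold change of 0.34 and an SE of 0.19 (edgeR, adjusted p = 0.487). Control females ran from 2.76 through 3.98 to 5.27 CPM and LKO females from 1.78 through 2.59 to 5.33, with a log2 fold change of -0.34 and an SE of 0.25 (edgeR, adjusted p = 0.573). At 1.78 to 5.33 CPM over all 23 livers it rested on few reads beside Tm7sf2.

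The remaining genes of these steps mostly had lower values in LKO livers without passing the test. Nsdhl, a sterol dehydrogenase, had 24.4, 23.2, 26.0, 16.0 and 49.7 CPM in control males and 6.81, 19.6 and 24.7 as the lowest, median and highest LKO males. In females the controls ran from 11.6 through 18.3 to 38.4 CPM and the LKO livers from 7.39 through 12.3 to 16.3. Its log2 fold changes were -0.64 with an SE of 0.31 and -0.78 with an SE of 0.24 (edgeR, adjusted p = 0.414 and 0.125), and the groups overlapped in both sexes.

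Ebp, the most abundant member, had 219, 245, 173, 314 and 292 CPM in control males and 146, 183 and 235 as the lowest, median and highest LKO males. Control females lay close together, from 251 through 260 to 285 CPM, and 5 of the 6 LKO females, which ran from 200.4 through 214 to 266, lay below all of them. The log2 fold changes were -0.42 with an SE of 0.15 and -0.27 with an SE of 0.08 (edgeR, adjusted p = 0.306 and 0.116). Sc5d had 349, 323, 293, 235 and 357 CPM in control males against 166, 256 and 336 in LKO males. In females the controls ran from 183 through 339.5 to 404 CPM and the LKO livers from 182 through 228 to 265. Its log2 fold changes were -0.28 and -0.51 with SEs of 0.16 and 0.15 (edgeR, adjusted p = 0.497 and 0.116). All 6 LKO females lay below the control mean of Sc5d, but its lowest control, at 183 CPM, lay at the bottom of their range.

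Cyp51, the lanosterol demethylase, had log2 fold changes of -0.46 in males and -0.61 in females. Msmo1, the sterol methyl oxidase, had -0.53 and -0.43, and Dhcr7, which makes cholesterol from its last precursor, had -0.49 and -0.45. Without control male replicate 6 the male values of Cyp51, Msmo1 and Dhcr7 were -0.12, -0.11 and -0.26, and without control female replicate 2 the female value of Dhcr7 was -0.25. Hsd17b7, a sterol ketoreductase of the same stretch, was at 0.10 in both sexes. DESeq2 called 7 of the 29 members in females, against 4.09% of all genes. These were Pmvk, Tm7sf2, Rdh11, Nsdhl, Ebp, Sc5d and Scap. Limma on the deposited FPKM values called none. In the authors' deposited table, 8 members had an adjusted p under 0.05 in females, these 7 and Fdps, against 2.22% of all genes in that table, and 0 in males, against 0.438%.

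**Figure D3:**
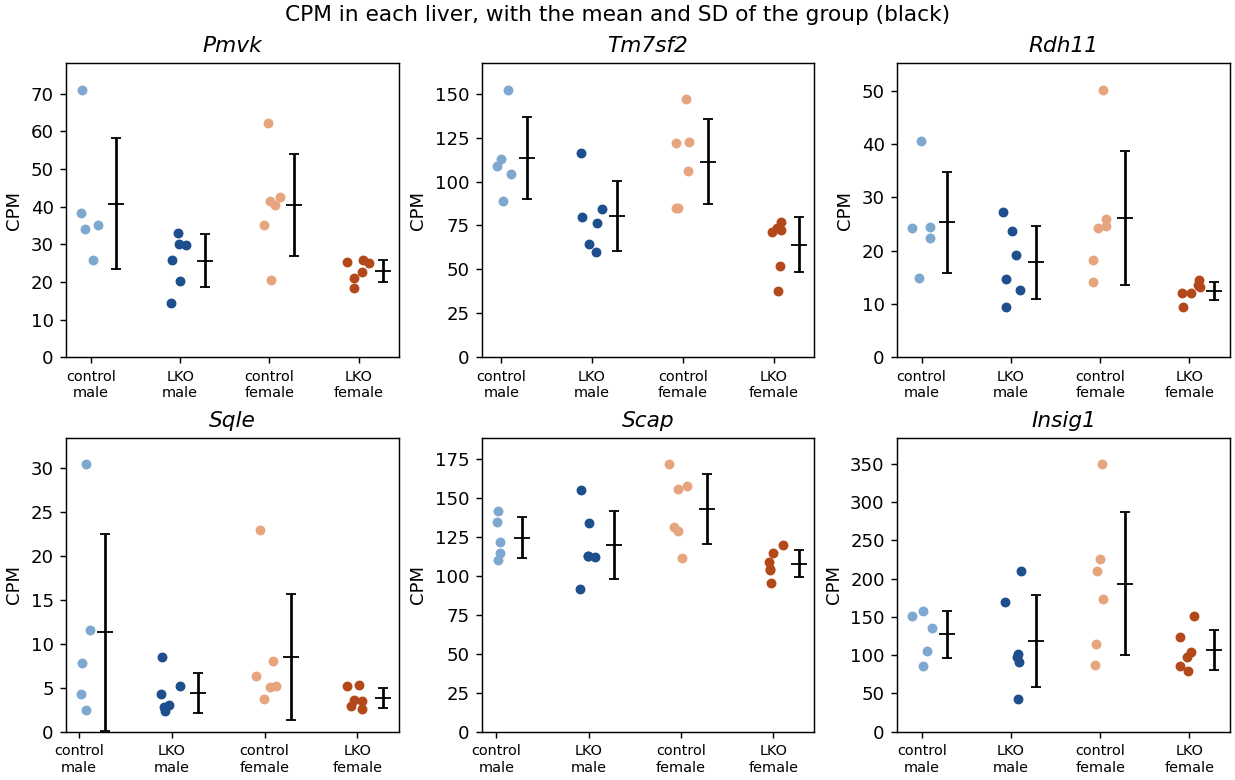
CPM per liver (vertical axes from 0, 1 point per liver) of Pmvk, Tm7sf2, Rdh11, Sqle, Scap and Insig1 in the 4 groups, with the mean and SD of each group in black beside its points. The LKO female points of Tm7sf2 lie at 77.2 CPM or lower and its control female points at 84.7 or higher, while in Sqle a control of each sex stands far above the rest.

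None of the 6 genes that control SREBP2 was called by edgeR in either sex, although DESeq2 called Scap in females. Before adjustment 3 of the 6 had a p under 0.05 in females, Srebf2, Scap and Insig1, all lower in LKO, and 0 in males. Over all genes tested, 7.33% in females and 7.22% in males were lower at that threshold. Medians of the 6 genes were -0.08 in males and -0.19 in females. Srebf2, which encodes SREBP2, had 52.0, 48.1, 60.9, 36.9 and 62.2 CPM in control males and ran from 35.4 through 44.7 to 49.7 in LKO males. Female controls ran from 48.4 through 58.6 to 64.1 CPM and LKO females from 42.5 through 49.0 to 56.2. The log2 fold change was -0.24 in each sex, with SEs of 0.13 and 0.09 (edgeR, adjusted p = 0.462 and 0.179), and the groups overlapped in both. All 6 LKO livers of each sex lay below the control mean of Srebf2.

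Scap, the escort of SREBP2, had 110.1, 114, 122, 135 and 141 CPM in control males and ran from 91.8 through 112 to 155 in LKO males. The log2 fold change was -0.06 with an SE of 0.12 (edgeR, adjusted p = 0.898), and leaving out LKO male replicate 3 turned its sign. Control females ran from 111 through 143 to 171 CPM and LKO females from 95.0 through 107 to 120. There 4 of the 6 LKO females lay below every control, and the log2 fold change was -0.41 with an SE of 0.10 (edgeR, adjusted p = 0.0647).

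Insig1, itself a target of SREBP2, had 151, 158, 136, 85.4 and 106 CPM in control males and ran from 42.8 through 99.8 to 210.3 in LKO males. LKO males lay on both sides of the controls, and the log2 fold change was -0.10 with an SE of 0.32 (edgeR, adjusted p = 0.938). In females the controls ran from 87.0 through 192 to 349 CPM and the LKO livers from 79.8 through 101 to 151. All 6 LKO females were below the control mean, 2 of them below every control, and the log2 fold change was -0.85 with an SE of 0.27 (edgeR, adjusted p = 0.134). Insig2, which is not driven by SREBP2 in the same way, had 261, 309, 300.2, 366 and 205 CPM in control males against 159, 266 and 317 in LKO males. Female controls ran from 96.3 through 197 to 246 CPM and LKO females from 125 through 196 to 303. The groups overlapped widely, with log2 fold changes of -0.25 and 0.19 and SEs of 0.20 and 0.23 (edgeR, adjusted p = 0.644 and 0.767). The protease genes had values near 0. Mbtps1, for the first cleavage of SREBP2, had 0.08 and -0.04 with SEs of 0.08 and 0.07, and Mbtps2, for the following cleavage, had 0.20 and -0.13 with SEs of 0.14 and 0.13.

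The last 4 genes act in sterol transfer, storage or beside the pathway. Of these Rdh11, a retinal reductase known as an SREBP target, fell in LKO females (ENSMUSG00000066441, chromosome 12, 79221111 to 79239067, minus strand). Its control females ran from 14.1 through 24.4 to 50.2 CPM and LKO females from 9.44 through 12.6 to 14.5. In all, 5 of the 6 LKO females lay below every control, and the highest LKO liver overlapped the lowest control. Rdh11 fell by 1.08 on the log2 scale, with an SE of 0.24 (edgeR, adjusted p = 0.0384). Control males had 22.5, 24.2, 24.5, 14.8 and 40.7 CPM and LKO males ran from 9.37 through 16.9 to 27.4, with a log2 fold change of -0.51 and an SE of 0.28 (edgeR, adjusted p = 0.474).

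Stard4, a soluble cholesterol carrier between membranes, had 40.3, 50.2, 41.6, 46.4 and 80.0 CPM in control males and ran from 30.9 through 41.2 to 61.2 in LKO males. Female controls ran from 49.7 through 59.4 to 99.9 CPM and LKO females from 27.1 through 46.6 to 54.2, so that 5 of 6 LKO females lay below every control. The log2 fold changes were -0.28 with an SE of 0.19 and -0.56 with an SE of 0.18 (edgeR, adjusted p = 0.578 and 0.131). The sterol esterifying pair differed in sign without a call in either. Soat2 had -0.17 with an SE of 0.11 in males and -0.24 with an SE of 0.09 in females, and Soat1, known mostly from macrophages, had 0.29 with an SE of 0.24 and 0.17 with an SE of 0.14.

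Livers of the same group differed among themselves in many members at once. Against the control mean of its sex, on log2(CPM + 0.5), the median over the members was 0.54 in control male replicate 6 and -0.55 in control male replicate 4. Replicate 6 was the highest of the 11 males in 19 of the 30 members. LKO male replicate 5 was the lowest of all males in 16 members, with a median of -0.83, while LKO male replicate 1 stood above the control mean with a median of 0.14. Among females, control replicate 2 was the highest in 15 of 29 members and had a median of 0.27, and control replicate 3 had a median of -0.36. All 6 LKO females lay below 0, with medians from -0.23 to -0.56. LKO female replicate 3 was the lowest of the females in 14 of 29 members.

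The spread within a group was narrower in LKO females than in the other groups as a description. The median SD of log2(CPM + 0.5) over the 30 members was 0.234 in LKO females, 0.364 in control females, 0.342 in LKO males and 0.400 in control males. LKO females had the lower SD of the 2 female groups in 21 of 30 members, and LKO males that of the 2 male groups in 16 of 30. This difference in spread was not tested.

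**Figure D4:**
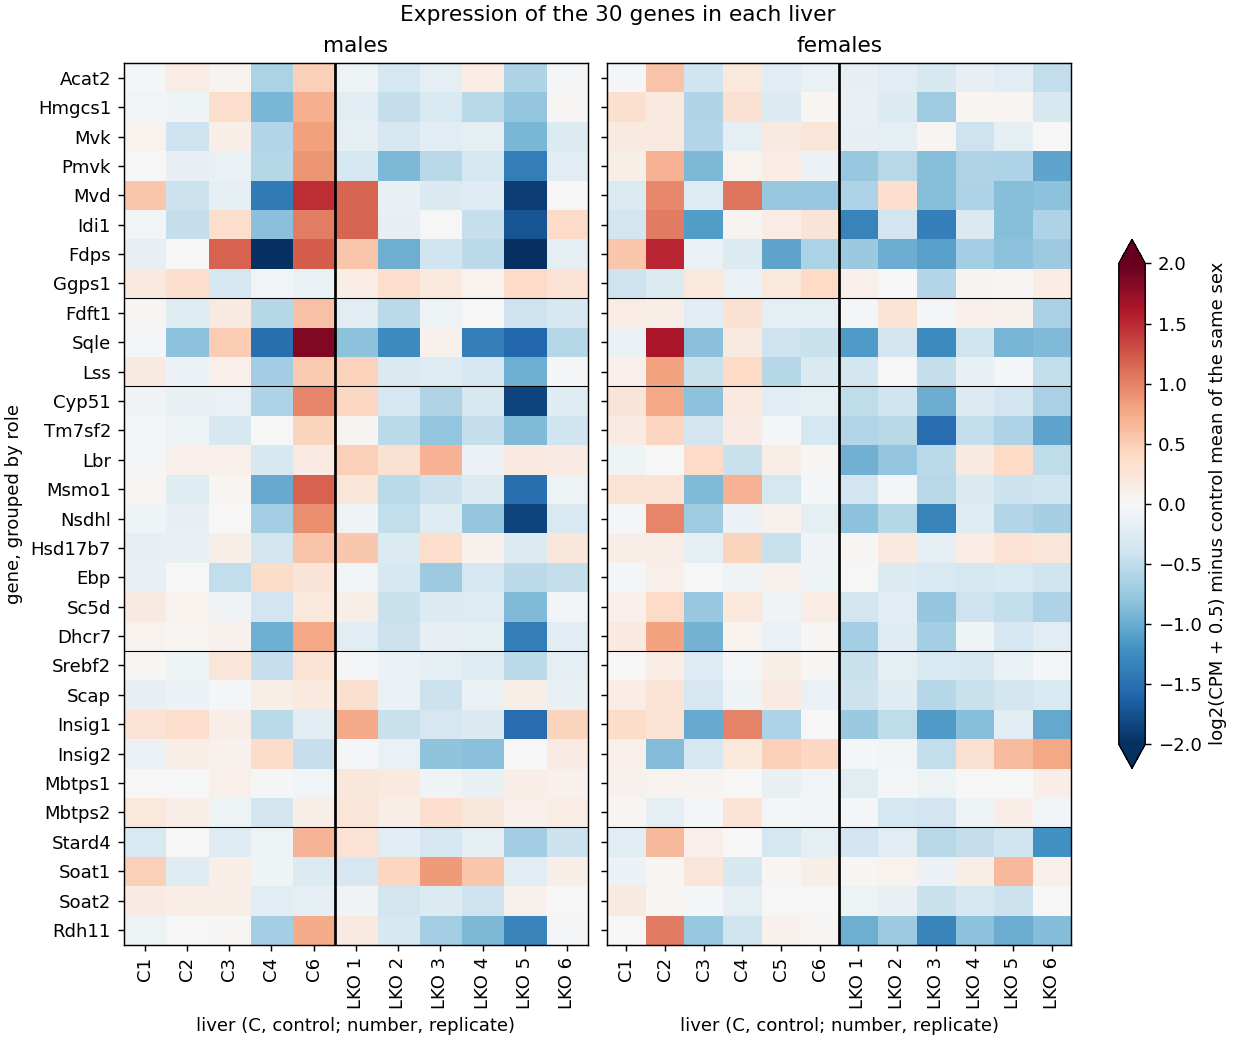
Each cell is log2(CPM + 0.5) of a gene (rows, grouped by role) in a liver (columns, controls marked C and LKO livers to the right of the thick line) minus the control mean of the same sex, with blue below and red above that mean and the scale ending at 2 in either direction. Control male 6 and control female 2 are red in most enzyme rows and LKO male 5 blue in most, and the LKO female columns are mainly blue.

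Most members had fold changes of the same sign in the sexes. Of the 29 members tested in both, 22 had log2 fold changes below 0 in both sexes, or 75.9%, against 24.3% of the 13393 genes tested in both. Across the 29 members the fold changes of the sexes had a Pearson r of 0.60 and a Spearman rho of 0.56, against 0.15 and 0.08 across all genes. Genes are not independent replicates, and each value rests on the same few livers as the next. Nearly every enzyme of the chain is known to answer to SREBP2, but shared regulation was not tested here. No sample is shared between the sexes. The difference between them was tested as a genotype by sex interaction, in which no member was called by edgeR's quasi-likelihood test, as was true of all 14503 genes (0%). DESeq2, which called 0.662% of all genes, and limma called none of the 30 either. Before adjustment 1 of 30 had a p under 0.05, against 12.9% of all genes. This was Scap, with a difference of -0.35 and an SE of 0.17 (edgeR, adjusted p = 0.379). Larger but less certain differences included that of Idi1 at -0.96 with an SE of 0.64 (edgeR, adjusted p = 0.551). Insig1 was at -0.76 with an SE of 0.45 and Fdps at -0.83 with an SE of 0.93 (edgeR, adjusted p = 0.486 and 0.748). Lbr, with opposite signs in the sexes, was at -0.68 with an SE of 0.33 (edgeR, adjusted p = 0.395). For Tm7sf2 the difference was -0.30 with an SE of 0.26, for Pmvk -0.14 with an SE of 0.33, for Nsdhl -0.14 with an SE of 0.42, for Sqle 0.23 with an SE of 0.70, and for Srebf2 0.00 with an SE of 0.16. For Rdh11 it was -0.57 with an SE of 0.39 (edgeR, adjusted p = 0.565).

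Control females were also set against control males, where sex and deposited table cannot be told apart. Of the 30 members 2 were called, both higher in females, against 18% of 13699 genes called in either direction and 8.8% as higher. These were Lbr, with a log2 difference of 0.72 and an SE of 0.18, and Soat2, with 0.30 and an SE of 0.09 (edgeR, adjusted p = 0.0169 and 0.0463). Lbr remained called when any 1 library was left out. Soat2 did so in 2 of 11 such fits. DESeq2 called 3 members here, against 22.1% of all genes: Lbr, Soat2 and Insig2, the last lower in females, with a log2 difference of -0.61 and an SE of 0.22 in edgeR (adjusted p = 0.0687). The enzymes of the chain had values on both sides of 0, from -1.12 for Fdps to 0.72 for Lbr, and 12 of all 30 members were below 0, against 49.5% of all genes.

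Other genes of sterol biology were taken from lists written with earlier results known. In either direction, 1719 of 13805 genes tested in males and 2140 of 13684 in females had an unadjusted p under 0.05 in edgeR. The unadjusted counts of these lists and of the markers below are to be read beside that share. Of 14 further SREBP2 targets, 13 were tested in each sex, and their medians were -0.21 in males and -0.18 in females. In males 0 of 13 were called by edgeR's quasi-likelihood test and 3 had an unadjusted p under 0.05, and the lowest p was that of Erg28, a scaffold of the sterol demethylation complex, at -0.37 with an SE of 0.13 (edgeR, adjusted p = 0.307). In females 1 was called, Acss2, the cytosolic acetyl-CoA synthetase. It ran from 67.8 through 123 to 499.9 CPM in control females and from 42.4 through 57.1 to 80.8 in LKO females. The highest of these is control female replicate 2, which was also the highest in 15 members, and the log2 fold change was -1.65 with an SE of 0.38 with it (edgeR, adjusted p = 0.0487) and -1.02 without it (edgeR, adjusted p = 0.0215). Leaving out any of the other 11 female libraries except control replicates 3 and 4 ended the call. It was also lost with library size alone, with at least 10 counts in every sample and with limma (adjusted p from 0.0509 to 0.104). Of this list DESeq2 called 0 in males and 3 in females, and limma called 0 in either sex.

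The medians of the other lists lay nearer 0. Of 14 genes of sterol-dependent degradation and trafficking, edgeR called 0 in either sex, 2 had an unadjusted p under 0.05 in each sex, and the medians were 0.08 in males and -0.01 in females. The lowest p values were those of Pgrmc1 in males at 0.26, a haem-binding partner of sterol enzymes, and of the ubiquitin ligase gene Syvn1 in females at -0.35 (edgeR, adjusted p = 0.274 and 0.214). A list of 11 genes held LXR targets, which answer to high sterol, together with the LXR receptor genes Nr1h3 and Nr1h2 themselves. Of these 11 genes edgeR called 0 in either sex. Before adjustment 1 had a p under 0.05 in males and 0 in females, and the medians were 0.12 and -0.14. Cyp7a1, the rate-limiting enzyme of bile acid synthesis, was at 1.01 in males and the sterol transporter gene Abcg8 at -0.43 in females (edgeR, adjusted p = 0.334 and 0.321). The remaining list has 12 genes, 11 of protein prenylation, dolichol or ubiquinone synthesis, and Cyp27a1, a sterol hydroxylase that does not use isoprenoids. Of the 12 edgeR called 0 in either sex, 1 had an unadjusted p under 0.05 in males and 3 in females, and the medians were 0.03 and 0.02, or 0.04 and 0.05 without Cyp27a1. The prenyltransferase gene Pggt1b had the lowest p in both sexes, at 0.29 and 0.27 (edgeR, adjusted p = 0.343 and 0.101). DESeq2 called 1 gene of these lists, Pgrmc1 in males, and limma none.

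Among markers of cell types and of liver zones, edgeR called 3 genes in females, and DESeq2 called these and Hal, Col3a1 and Cd8a. The pericentral gene Cyp1a2 fell by 0.82 on the log2 scale, and the macrophage genes Gpnmb and Trem2 rose by 3.22 and 1.32 (edgeR, adjusted p = 0.042, 0.00256 and 0.00314). The calls of Gpnmb and Trem2 held with any 1 female library left out but were lost in the fit of all 23 libraries (adjusted p = 0.0661 and 0.167). That of Cyp1a2 held in 5 of the 12 fits with a library left out and was lost with limma and in the fit of all 23 libraries. Of the 8 macrophage markers, 5 had log2 fold changes below 0 in females, and the median was -0.03. Summed macrophage markers overlapped, at 451 to 901 CPM in control females and 556 to 889 in LKO females. Summed hepatocyte markers ran from 76477 to 93123 CPM in control females and from 52072 to 83770 in LKO females, and all 6 genes had log2 fold changes below 0 with a median of -0.27, of which 0 were called by edgeR or DESeq2 and 1 had an unadjusted p under 0.05. Stellate cell and fibroblast markers summed to 190.2 to 252 CPM in controls and 194 to 379 in LKO females. All 6 of these genes had log2 fold changes above 0, with a median of 0.53, and 4 had an unadjusted p under 0.05 in edgeR. Of the 5 periportal markers, 3 were lower at an unadjusted p under 0.05 and the median was -0.42, with sums of 4805 to 7307 CPM in controls and 4893 to 6680.2 in LKO females. Cholangiocyte markers summed to 5.03 to 8.59 and 6.59 to 9.89, and lymphocyte markers to 3.63 to 7.37 and 4.27 to 24.8. Endothelial markers summed to 156 to 211 and 145 to 191 CPM. Pericentral markers, Cyp1a2 among them, had a median of -0.37. In males 0 markers were called by edgeR, DESeq2 or limma, and hepatocyte markers summed to 54675 to 79102 CPM in controls and 51106 to 70640 in LKO livers, with 4 of 6 genes below 0, a median of -0.27 and 2 at an unadjusted p under 0.05. Their part in the members' values was not tested.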

How the data were processed

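The authors deposited 1 table per sex, holding raw read counts per gene, a normalized count signal and FPKM values. The authors also deposited p-values, raw and adjusted, and the log2 change of LKO over control. Per the submitters' processing notes, HISAT2 2.0.5 and mm39 were used. The counter, annotation release and strand setting are not given in the sources used here. Per the labels' protocols, polyadenylated RNA was primed with random hexamers, and dUTP preserved strand information. Sex coincides with the table, and the labels give no batch.

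The deposited counts were tested with edgeR 4.0.16 in R 4.3.3: filterByExpr, TMM factors and the quasi-likelihood test, with p-values adjusted by Benjamini-Hochberg across every gene tested, each sex alone. The interaction used all 23 libraries, and the sex comparison the 11 control libraries, over the 22852 genes in both tables. The quasi-likelihood test returns no SE. Each SE printed or drawn is the absolute log2 fold change or difference divided by the square root of the test's F statistic. The deposited FPKM values served for levels between genes. Cpt1a was also tested on log2(CPM + 1). Members and lists were chosen with earlier results of these data known.

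Values per liver are given for members called in either table, the 8 with the lowest p in females and the 5 in males, Insig1, Srebf2, Scap and the paralog of a named gene. From the other lists, called genes or else the lowest p per table are named. Alternatives were RLE factors, library size alone, no filter, at least 10 counts in every sample, DESeq2 1.42.0, limma 3.58.1 on log2 FPKM with a pseudocount of 1 or 0.1, 1 fit over the 23 libraries, a replicate block, and each library left out. Promoter letters come from RefSeq entries of GRCm38.p6.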

Additional observations from a re-analysis of the deposited data

Results flagged for a closer look

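In 15 of 120 combinations of a member and a group, 1 liver stood apart from the rest of its group by Dixon's criterion. Chance alone meets it in about 1 of 20 groups of independent, normally distributed values. That rate is no background for these flags, since they rest on CPM and the members share the same livers. No flagged share over all genes is given, so whether the members hold more flags than other genes was not tested. Control male replicate 6 was high for Pmvk (71.1 CPM, the next at 38.2), Cyp51 (75.8, the next at 36.5) and Stard4 (80.0, the next at 50.2). Control female replicate 2 was high for Sqle (22.9 CPM, the next at 8.02), Nsdhl (38.4, the next at 20.6), Stard4 (99.9, the next at 67.9) and Rdh11 (50.2, the next at 25.9). These are the livers that were the highest of their sex in 19 of 30 and 15 of 29 members. LKO male replicate 5 was low for Mvk (9.93 CPM, the next at 15.1) and Dhcr7 (23, the next at 45.4).

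The other 6 flags fell on single genes. Mvd, the decarboxylase of the mevalonate steps, was high in LKO male replicate 1 (31.6 CPM, the next at 13.7) and in LKO female replicate 2 (12.6, the next at 6.25). Ebp was high in LKO female replicate 1 at 266 CPM against 220 or less in the others. Soat1 was high in LKO female replicate 5 (11.1 CPM, the next at 7.66), Mbtps1 in control male replicate 3 (58.0, the next at 53.6), and Ggps1 low in LKO female replicate 3 (4.16, the next at 6.40).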

How the results depend on the processing

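Males and the interaction had 0 members called under all alternatives, and the member medians kept their sign in both sexes. With a library left out, the male median ran from -0.413 to -0.147, the latter without control male replicate 6, and the female median from -0.425 to -0.252. The 3 calls in females became 1 with library size alone, 7 with DESeq2, 0 with limma on log2(FPKM + 1) or on log2(FPKM + 0.1), 1 in the fit of all 23 libraries, and 0 to 7 with a library left out. Leaving out control female replicate 3 gave the 7, and control female replicate 2, the highest in most members, gave 1. The 2 calls between controls became 1 with library size alone or no filter, and 1 to 3 with a library left out. Cpt1a kept its call throughout. The replicate numbers were not taken as pairs, since the labels give them no meaning and not every same-numbered pair had a correlation over 0.1. In males 1 of 5 pairs did (-0.341 to 0.404), and 1 control matched its own number best. In females 4 of 6 pairs did (0.00693 to 0.177), and 4 controls matched their own number best, a hint from the data and not from the design. A replicate block gave 8 calls in females and 0 between controls. Under it, Mvd (0.0791), Idi1 (0.191) and Insig1 (0.0319) in males, the interaction of Srebf2 (-0.0145) and Vps51 in females (-0.00977) changed sign. With library size alone, Fdft1 (0.0101) and Mbtps1 (0.00901) in females did so. The interaction of Srebf2 turned to -0.00894 with no filter and to -0.0156 and -0.0159 with limma on FPKM + 1 and + 0.1, where Vps51 in females turned to -0.0122 and -0.0158. Over libraries left out, values spanned 0 in males for Mvd (-0.745 to 0.215), Idi1 (-0.472 to 0.321), Scap (-0.144 to 0.0188) and Insig1 (-0.338 to 0.0768). They did in females for Ggps1 (-0.132 to 0.0445), Fdft1 (-0.0943 to 0.0704), Mbtps1 (-0.0722 to 0.00781) and Vps51 (-0.0981 to 0.0493). The same held for the interaction of Pmvk (-0.446 to 0.0263), Sqle (-0.572 to 0.821), Nsdhl (-0.463 to 0.137) and Srebf2 (-0.0814 to 0.094). None of these genes was called in that comparison, and the cause was not tested. Fdps could not be tested in females for lack of reads.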
